A study of Mus musculus with 6 samples.

Results

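Aminoacyl-tRNA synthetases are the enzymes that load each transfer RNA with its amino acid, and 36 of their genes were followed here in the mRNA of mouse pancreatic islets. The members were given by name: 20 genes of cytosolic enzymes and 16 genes of mitochondrial enzymes (symbols ending in 2). All 36 had a probe on the array, matched through the RefSeq accession of the probe, and Mars was matched under its present symbol, Mars1. In all, 34 of the 36 (20 cytosolic and 14 mitochondrial) entered the test, among 19021 genes tested in the whole series. Mars2 and Nars2, which load mitochondrial methionyl- and asparaginyl-tRNA, were well above background on 0 of 6 arrays and were not tested.

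The study measured 6 arrays, 2 in each of 3 groups, of islets. By the labels, all mice were males of ICR strain background at 16 weeks of age. All 3 groups carried the floxed Trsp gene (TrspFlox/Flox), which encodes the transfer RNA for selenocysteine. Trsp-RIPKO islets also carried RIP-Cre, a Cre driven by the rat insulin promoter, and Trsp-Ins1KO islets carried Ins1-Cre, both of which act in beta cells. RIP-Cre is known to act in some neurons of the hypothalamus as well. TrspFF islets had no Cre, and no group with Cre and an intact Trsp is among the samples. Whether both arrays of a group stem from different mice is not in the labels. The p-values therefore reflect no more than the spread of these samples, which may be technical. The comparisons ask how synthetase mRNA in each Cre line differed from that in floxed islets, and whether the cytosolic and the mitochondrial enzymes differed in the same way.

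Each amino acid has its own synthetase, and cytosol and mitochondria mostly use enzymes from separate nuclear genes. The exceptions include Gars and Kars, whose single genes supply both compartments, and glutamine, which mitochondria attach to its transfer RNA by way of Ears2 and an amidotransferase. Several cytosolic synthetases sit in a multisynthetase complex held together by the scaffold proteins encoded by Aimp1, Aimp2 and Eef1e1. ATF4, the transcription factor of the integrated stress response, is known to induce many cytosolic synthetase genes together with genes of amino acid synthesis and transport, through a DNA element shared with C/EBP proteins. Insulin-producing beta cells, which translate a single secreted protein at a high rate, are a setting in which that response is well known.

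The ATF4 element is shown first, because it was found in promoters of cytosolic members and in none of the mitochondrial windows. RefSeq promoter windows (assembly GRCm38.p6, 250 bases before to 50 after a transcript start) were at hand for 13 cytosolic and 14 mitochondrial members, and none is printed for the other members. The element was searched as TGATGNAA on both strands. It occurred in the windows of 5 of the 13 cytosolic genes (38.5%), in 0 of the 15 windows of the 14 mitochondrial genes, and in 1304 of all 32851 promoter windows (3.97%). The 250 bases before the start of Aars, which lie at chr8:111033592-111033841 on the plus strand, hold 1 match, given in capitals, that begins 112 bases before the start.
Aars: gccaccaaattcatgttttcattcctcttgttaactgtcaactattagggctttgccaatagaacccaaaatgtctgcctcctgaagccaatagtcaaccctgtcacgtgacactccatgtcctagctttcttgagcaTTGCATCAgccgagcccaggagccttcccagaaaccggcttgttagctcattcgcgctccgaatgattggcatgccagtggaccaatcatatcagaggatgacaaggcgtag

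The other 4 genes with a match are shown with 30 bases around it, each read along the gene's own strand with the match in capitals. The match began 30 bases before the start of Gars (chr6:55037960-55037989, plus strand) and 15 bases before the start of Tars (chr15:11399655-11399684, minus strand). It began at base 8 after the start of Iars (chr13:49682126-49682155, plus strand) and at base 4 after that of Yars (chr4:129189895-129189924, plus strand).
Gars: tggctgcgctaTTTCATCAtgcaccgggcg
Tars: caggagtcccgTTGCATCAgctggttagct
Iars: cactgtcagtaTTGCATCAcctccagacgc
Yars: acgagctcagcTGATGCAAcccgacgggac
Aars had a further match at base 10 after its start (chr8:111033840-111033869, plus strand).
Aars: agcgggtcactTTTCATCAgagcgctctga
For Aars and Yars the start used is that of a transcript lying inside a longer RefSeq gene span. A match is a run of letters in this window and not a measured binding site.

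Values below are log2 of the processed signal after subtraction of the array's 75th percentile, so they are relative to the rest of each array and are compared only within a probe. That percentile ranged from 203.0 to 215.2 intensity units on Trsp-RIPKO arrays, from 110.7 to 121.9 on Trsp-Ins1KO arrays and from 218.1 to 247.2 on TrspFF arrays, and added control RNA lay higher relative to it on Trsp-Ins1KO arrays (0.80 and 0.92) than on Trsp-RIPKO arrays (-0.14 and -0.27) and TrspFF arrays (-0.55 and -0.32). Both Trsp-RIPKO arrays were on slide 2 and the other 4 on slide 1, so for Trsp-RIPKO slide and genotype cannot be told apart, and the scanner software marked both for evaluation. The authors' table of processed values names its columns differently: those it calls TrspFF match the scanner files of Trsp-Ins1KO and those it calls Trsp-Ins1KO match the scanner files of TrspFF. The groups here are those of the scanner files. By the table's own names, the difference of each of the 34 members between Trsp-Ins1KO and TrspFF has the opposite sign. No probe for Trsp was found, so the deleted gene gives no check. Xist, which shuts down an X chromosome in females, had values of 1.05 and 1.34 on Trsp-RIPKO arrays, -5.79 and -5.60 on Trsp-Ins1KO arrays, and -0.56 and -0.32 on TrspFF arrays, although all mice are labelled male. Of 5 sex-linked genes tested, 1 was called higher and 4 lower in Trsp-RIPKO than in TrspFF (all genes, 18.9% and 17.5%). In Trsp-Ins1KO 0 were higher and 2 lower (all genes, 23% and 22.9%). Between the lines 4 were higher in Trsp-Ins1KO and 1 lower (all genes, 19.3% and 19.4%). A difference in sex between the groups could not be told apart from genotype, and its part was not tested.

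Islet identity was clear on all arrays, since 12 of 12 beta-cell markers were above background in each group. Their sum, in multiples of the 75th percentile, was 3635 to 3895 in Trsp-RIPKO, 5916 to 6487 in Trsp-Ins1KO and 3280 to 3676 in TrspFF. Against TrspFF, 0 of the 12 were called higher and 5 lower in Trsp-RIPKO (median -0.16), and 6 higher and 2 lower in Trsp-Ins1KO (median 0.27). Beside these counts and those that follow, 18.9% of all genes were higher and 17.5% lower in Trsp-RIPKO. In Trsp-Ins1KO these shares were 23% and 22.9%. Acinar markers, which come from the digestive-enzyme cells around islets, summed to 35.5 to 39.2 in Trsp-RIPKO, 30.3 to 32.0 in Trsp-Ins1KO and 20.1 to 20.9 in TrspFF. Of 19 acinar markers tested, 17 were called higher and 0 lower in Trsp-RIPKO than in TrspFF, and 15 higher and 1 lower in Trsp-Ins1KO. Ptf1a, the acinar master regulator, was above background on no array. Fibroblast markers summed to 19.5 to 19.6 in Trsp-RIPKO, 4.82 to 5.03 in Trsp-Ins1KO and 12.7 to 13.1 in TrspFF. Of 7 fibroblast markers tested, 6 were higher and 0 lower in Trsp-RIPKO, and 1 was higher and 6 lower in Trsp-Ins1KO. Markers were also summed for the other hormone cells of the islet (alpha, delta and PP cells). Their sums were 1049 to 1117 in Trsp-RIPKO, 1031 to 1117 in Trsp-Ins1KO and 1551 to 1569 in TrspFF. Of these 8 markers, 1 was higher and 3 lower in Trsp-RIPKO, and 0 were higher and 5 lower in Trsp-Ins1KO. Endothelial markers summed to 57.0 to 57.3 in Trsp-RIPKO, 80.3 to 85.1 in Trsp-Ins1KO and 43.5 to 44.7 in TrspFF. Of these 8 markers, 5 were higher and 0 lower in each line. Between the lines, 9 of 12 beta-cell markers were higher in Trsp-Ins1KO than in Trsp-RIPKO and 1 was lower, with a median difference of 0.52. Over all genes 19.3% were higher and 19.4% lower. The part of these cell types in the results below was not tested, and fewer cells of a type cannot be told apart from less RNA per cell.

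All 34 members were well above background on all 6 arrays, and none differed from TrspFF by more than 1 log2 unit in either Cre line. The largest differences from TrspFF were 0.81 for Iars2 and 0.76 for Aars, both in Trsp-Ins1KO. A gene was called where its adjusted p in limma was under 0.05. The other probes of a gene were judged by a separate limma fit of all probes, dim ones kept. Their adjusted p was taken over all those probes, so their calls and those of the genes do not share a threshold. Both comparisons with TrspFF share the TrspFF arrays.

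**Figure D1:**
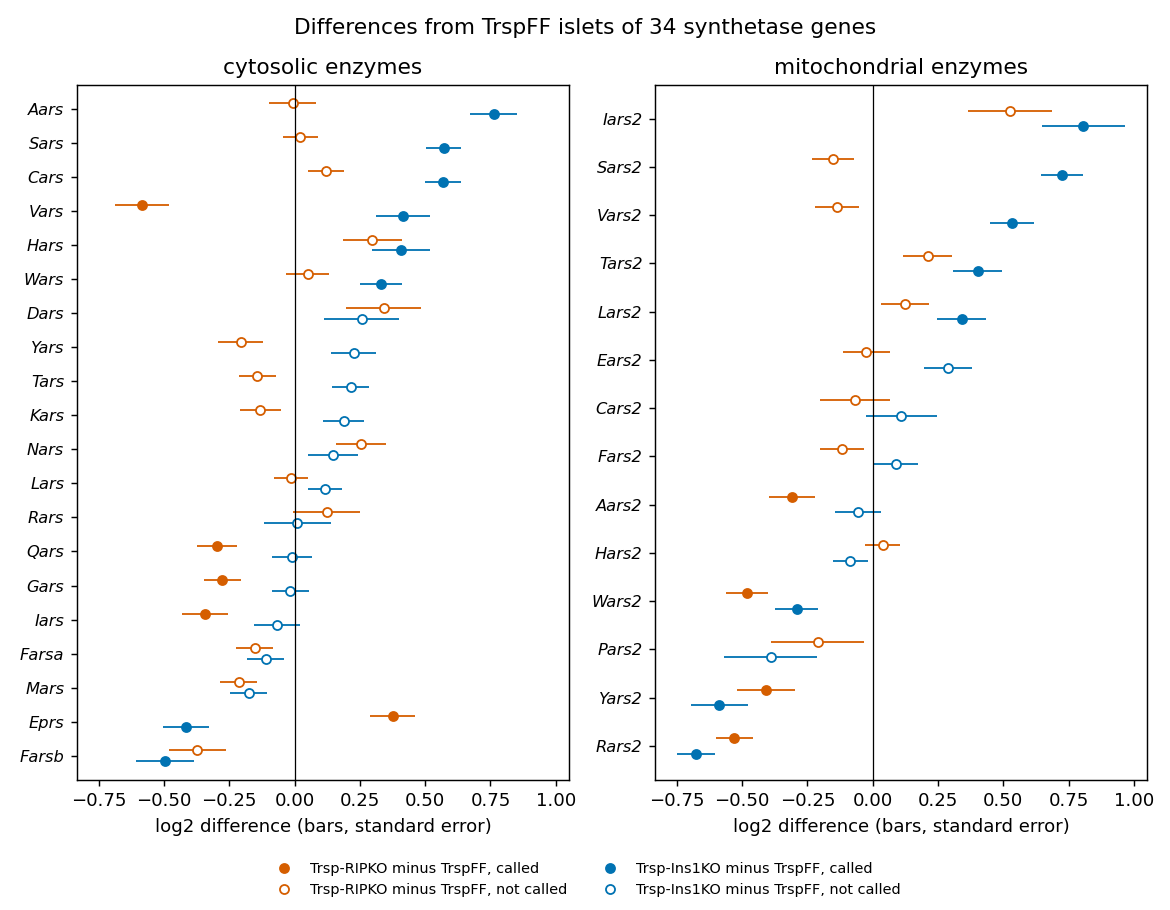
Log2 difference from TrspFF islets (x axis) of the 34 tested synthetase genes (y axis), cytosolic enzymes on the left and mitochondrial enzymes on the right; points are the fitted differences, bars the standard error, filled points are called at an adjusted p under 0.05. Trsp-Ins1KO points run from -0.68 (Rars2) to 0.81 (Iars2), and Vars and Eprs are the 2 genes with called points on opposite sides of 0.

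In Trsp-Ins1KO islets the cytosolic enzymes were called in both directions, as were all genes. The genes for alanine, cysteine, serine, valine, histidine and tryptophan rose, while those for glutamate with proline (Eprs) and the beta subunit for phenylalanine (Farsb) fell. That is 6 of 20 higher, where 23% of all genes were called higher, and 2 of 20 lower, where 22.9% of all genes were called lower. The share higher lay near that of all genes, and the share lower was below it. The median difference of the 20 was 0.17, against -0.01 over all genes tested, and it was 0.15 with quantile normalization, 0.10 with median scaling (all genes, -0.08) and -0.00305 with normexp background correction (all genes, 0.16).

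Aars, the alanyl enzyme, had the largest rise among cytosolic members. The array values of Aars were 3.97 and 3.76 in Trsp-Ins1KO islets and 3.10 and 3.09 in Trsp-RIPKO islets, against 3.12 and 3.08 in TrspFF. Both Trsp-Ins1KO arrays lay above the other 4, and the difference from TrspFF was 0.76 (SE 0.09, adjusted p = 0.00384), a 1.7-fold rise. Aars did not differ in Trsp-RIPKO beyond its spread (-0.01, 95% interval -0.24 to 0.22), although normexp background correction gave a called 0.32 there. Normexp leaves out the scanner software's correction for position on the array and adds an offset of 50 to each signal.

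Sars, the seryl enzyme, whose product also loads serine onto the selenocysteine transfer RNA, had values of 5.36 and 5.40 in Trsp-Ins1KO islets and 4.85 and 4.81 in Trsp-RIPKO islets, against 4.78 and 4.84 in TrspFF. The Trsp-RIPKO values lay within and just above the TrspFF range. The difference was 0.57 in Trsp-Ins1KO (SE 0.07, adjusted p = 0.00379) and 0.02 in Trsp-RIPKO (95% interval -0.15 to 0.19). Cars, the cysteinyl enzyme, had values of 4.35 and 4.28 in Trsp-Ins1KO islets and 3.84 and 3.90 in Trsp-RIPKO islets, against 3.72 and 3.77 in TrspFF. The Trsp-Ins1KO arrays again stood above all others, with a difference of 0.57 (SE 0.07, adjusted p = 0.00417), and Cars in Trsp-RIPKO was 0.12 and not called. The rises of Aars, Cars and Sars in Trsp-Ins1KO were called after any single array was left out, and with normexp they were called at 0.52, 0.29 and 0.28.

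Vars, the valyl enzyme, went in opposite directions in the 2 Cre lines. Its values were -1.51 and -1.75 in Trsp-RIPKO islets, -0.60 and -0.66 in Trsp-Ins1KO islets, and -0.99 and -1.10 in TrspFF. The 3 groups did not overlap, with a fall of 0.58 in Trsp-RIPKO (SE 0.10, adjusted p = 0.0154) and a rise of 0.41 in Trsp-Ins1KO (SE 0.10, adjusted p = 0.0266). Eprs, which joins the glutamyl and prolyl enzymes in 1 chain of the complex, did the reverse. Its values were 0.82 and 0.75 in Trsp-RIPKO islets, 0.09 and -0.10 in Trsp-Ins1KO islets, and 0.41 and 0.41 in TrspFF. Eprs rose by 0.38 in Trsp-RIPKO (SE 0.09, adjusted p = 0.0277) and fell by 0.42 in Trsp-Ins1KO (SE 0.09, adjusted p = 0.0159). None of these Vars and Eprs calls against TrspFF held in every fit without a single array, although the direction of each did. With median scaling neither the Eprs rise in Trsp-RIPKO (0.14) nor the Vars rise in Trsp-Ins1KO (0.34) was called, and with normexp the Trsp-RIPKO differences were -0.25 for Vars and 0.22 for Eprs, both called.

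Farsb, the beta subunit of the cytosolic phenylalanyl enzyme, had values of -0.10 and -0.34 in Trsp-Ins1KO islets and -0.08 and -0.11 in Trsp-RIPKO islets, against 0.36 and 0.19 in TrspFF. All 4 knockout arrays were below both TrspFF arrays, and only the Trsp-Ins1KO difference was called (-0.49, SE 0.11, adjusted p = 0.0196, against -0.37 and adjusted p = 0.0523 in Trsp-RIPKO). Its partner Farsa, the alpha subunit, was at -0.11 in Trsp-Ins1KO and -0.15 in Trsp-RIPKO, and a dimmer Farsa probe gave -0.49 in Trsp-Ins1KO and -0.70 in Trsp-RIPKO, none of these called. Hars, for histidine, rose by 0.41 in Trsp-Ins1KO and was at 0.30 in Trsp-RIPKO, not called. Wars, for tryptophan, rose by 0.33 in Trsp-Ins1KO and was at 0.05 in Trsp-RIPKO, but a dimmer Wars probe gave -0.23 in Trsp-Ins1KO and -0.09 in Trsp-RIPKO, neither called. With normexp neither Hars (0.16) nor Wars (0.11) was called in Trsp-Ins1KO.

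**Figure D2:**
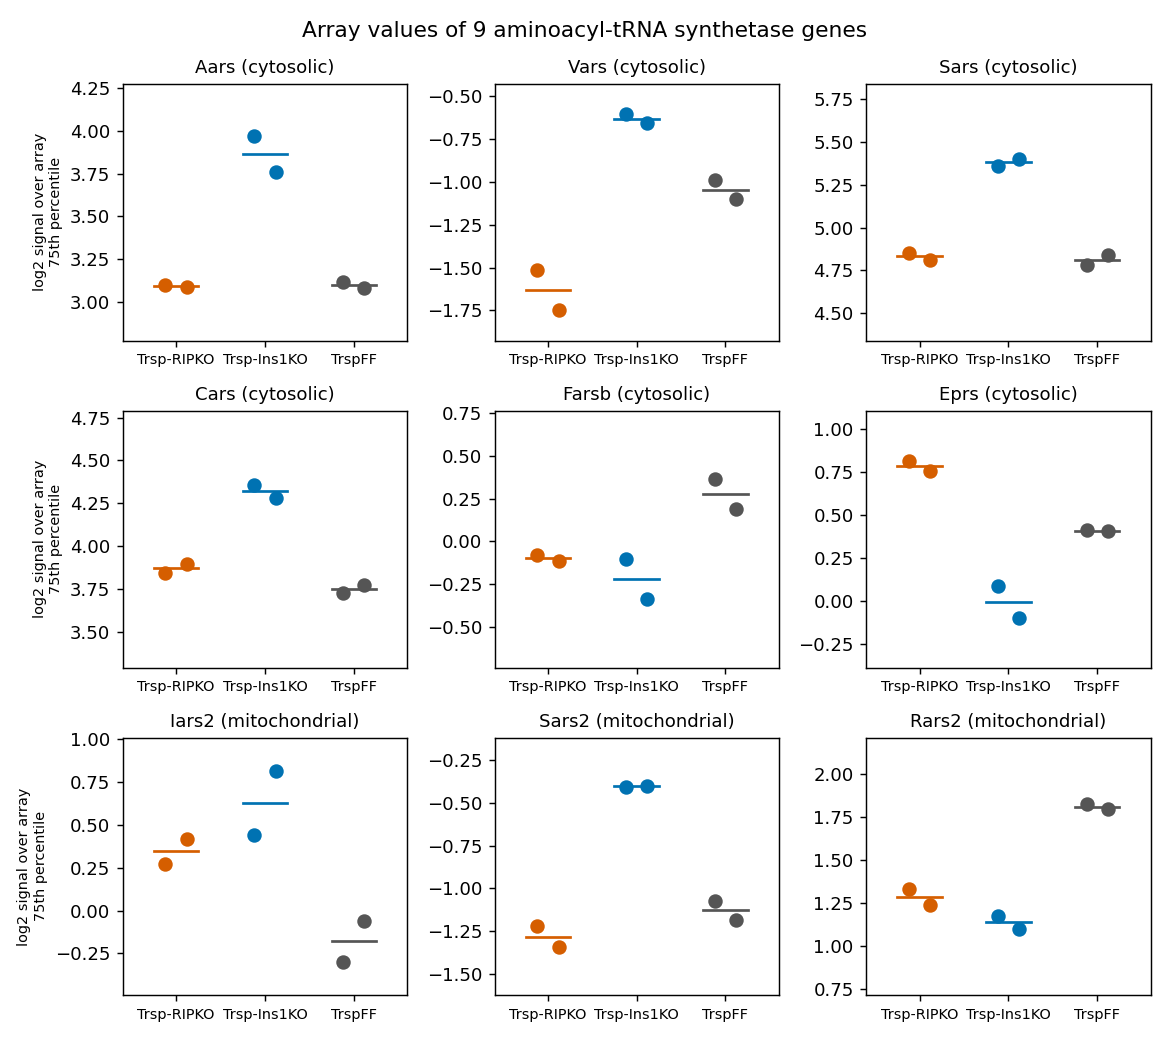
Log2 signal over the array's 75th percentile (y axis, all panels spanning the same range) of the 6 cytosolic and 3 mitochondrial genes with the largest called differences from TrspFF; points are arrays, 2 per group, and lines are group means. Aars, Sars, Cars and Sars2 have both Trsp-Ins1KO arrays above the other 4, and Rars2 has both TrspFF arrays (1.83 and 1.80) above the other 4.

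The remaining cytosolic members were not called in Trsp-Ins1KO, with differences from -0.17 for Mars (methionine) to 0.26 for Dars (aspartate). Between these lay Iars at -0.07 (isoleucine), Gars at -0.02 (glycine), Qars at -0.01 (glutamine) and Rars at 0.01 (arginine), and on the positive side Lars at 0.12 (leucine), Nars at 0.15 (asparagine), Kars at 0.19 (lysine), Tars at 0.21 (threonine) and Yars at 0.23 (tyrosine). The count of cytosolic members called higher went down to 3 without TrspFF array 1, TrspFF array 2 or Trsp-Ins1KO array 2, and was 4 without Trsp-Ins1KO array 1. The count called lower was 0 without either TrspFF array and 1 without Trsp-Ins1KO array 2. In the fits without an array of the groups compared, here and below, the counts over all genes went down too. Scaling moved the counts as well: 3 were higher and 2 lower with median scaling, and 6 higher and 6 lower with normexp. With normexp 9193 of all genes were higher and 4764 lower, in place of 4376 and 4362.

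In Trsp-RIPKO islets 5 of the 20 cytosolic members were called. Of 20, 1 was called higher (Eprs), where 18.9% of all genes were, and 4 were called lower, where 17.5% of all genes were. Beside Vars, those that fell were Iars by 0.34 (SE 0.09, adjusted p = 0.0368), Qars by 0.30 (SE 0.08, adjusted p = 0.0372) and Gars by 0.28 (SE 0.07, adjusted p = 0.0362). Iars and Qars belong to the multisynthetase complex and Gars does not. The share lower (4 of 20) lay near that of all genes, and the median of the 20 was -0.07, against 0.00 over all genes.

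The other cytosolic members were not called in Trsp-RIPKO. Below 0 were Mars at -0.21, Yars at -0.21, Tars at -0.14, Kars at -0.13 and Lars at -0.01. Above 0 were Rars at 0.12, Nars at 0.26 and Dars at 0.34. The 4 called lower went down to 0 without TrspFF array 1, TrspFF array 2 or Trsp-RIPKO array 2 and to 1 without Trsp-RIPKO array 1, and the 1 called higher was lost without any of these 4 arrays and was joined by another without either Trsp-Ins1KO array. With median scaling 0 were higher and 10 lower, over a shift of all genes by -0.24 that turned the split of all genes from 3593 higher and 3326 lower to 2013 and 7264, and with normexp 6 were higher and 8 lower.

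Between the Cre lines nearly all cytosolic members that were called differed in 1 direction, while 9 of the 20 were not called. In Trsp-Ins1KO, 10 of 20 were higher than in Trsp-RIPKO, where 19.3% of all genes were called higher, and 1 was lower, where 19.4% of all genes were called lower. Since TrspFF cancels, this is the test of whether the effects of the 2 lines differ. The largest differences were 1.00 for Vars (SE 0.10, adjusted p = 0.00311), 0.77 for Aars (SE 0.09, adjusted p = 0.00423) and 0.55 for Sars (SE 0.07, adjusted p = 0.00465). Cars (0.45), Yars (0.43), Tars (0.36), Kars (0.32), Qars (0.29), Wars (0.28) and Gars (0.26) were also higher, and Eprs was lower by -0.79 (SE 0.09, adjusted p = 0.00359). A dimmer Wars probe gave -0.14 between the lines, not called. With normexp the Aars difference was 0.20 and that of Vars 0.67, both called, while Gars (0.05), Kars (-0.01), Qars (0.09) and Tars (0.17) were not called.

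Of these 10, Yars, Tars and Kars were called against TrspFF in neither line, and each lay below TrspFF in Trsp-RIPKO and above it in Trsp-Ins1KO. The count of 10 went down to 4 without Trsp-RIPKO array 1, to 5 without Trsp-RIPKO array 2, TrspFF array 1 or TrspFF array 2, and to 6 without Trsp-Ins1KO array 1, and the 1 lower was kept in all 6 such fits. Vars, Aars, Sars and Eprs were called in all 6. With median scaling 12 were higher and 1 lower (all genes 5702 and 2351, shifted by 0.16, in place of 3666 and 3696), and with normexp 7 were higher and 4 lower (all genes 8330 and 3782).

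Mitochondrial synthetases charge the transfer RNAs used to make the few proteins encoded by mitochondrial DNA, all of them parts of the respiratory chain or ATP synthase. In Trsp-Ins1KO islets they too were called in both directions, with rises for isoleucine, serine, valine, threonine and leucine and falls for arginine, tyrosine and tryptophan. Of the 14 tested, 5 were called higher and 3 lower, a share of 35.7% and 21.4%, beside the 23% and 22.9% over all genes. Their median was 0.10, and it was 0.03 with median scaling and 0.06 with normexp.

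Iars2, the mitochondrial isoleucyl enzyme, had values of 0.44 and 0.82 in Trsp-Ins1KO islets and 0.27 and 0.42 in Trsp-RIPKO islets, against -0.30 and -0.06 in TrspFF. All knockout arrays were above both TrspFF arrays, and the difference was 0.81 in Trsp-Ins1KO (SE 0.16, adjusted p = 0.0137) and 0.53 in Trsp-RIPKO (SE 0.16, adjusted p = 0.0543). The other Iars2 probe, which was dimmer, gave 0.16 in Trsp-Ins1KO and 0.01 in Trsp-RIPKO, neither called, so the rise rests on 1 of 2 probes.

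Sars2, the mitochondrial seryl enzyme, had values of -0.41 and -0.40 in Trsp-Ins1KO islets and -1.22 and -1.34 in Trsp-RIPKO islets, against -1.07 and -1.18 in TrspFF. Only the Trsp-Ins1KO arrays stood apart from TrspFF by a called difference (0.72, SE 0.08, adjusted p = 0.00343), and Trsp-RIPKO was at -0.15. The call in Trsp-Ins1KO held without any single array. Vars2, for valine, rose by 0.53 in Trsp-Ins1KO (SE 0.08, adjusted p = 0.00752) and was at -0.14 in Trsp-RIPKO. A dimmer Vars2 probe, above background on no Trsp-Ins1KO array, read 0.34 in Trsp-Ins1KO and 0.44 in Trsp-RIPKO. Neither was called in the limma fit of all probes (adjusted p = 0.0579 and 0.0747). Tars2, for threonine, rose by 0.40 and Lars2, for leucine, by 0.34 in Trsp-Ins1KO, while in Trsp-RIPKO Tars2 was at 0.21 and Lars2 at 0.12, not called. The other Tars2 probe, above background on all 6 arrays, gave 0.19 in Trsp-Ins1KO, not called, and Tars2 was not called there with the mean over probes (0.30) or with normexp (0.15). With median scaling neither Tars2 (0.33) nor Lars2 (0.27) was called.

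Rars2, the mitochondrial arginyl enzyme, fell in both lines. Its values were 1.33 and 1.24 in Trsp-RIPKO islets, 1.17 and 1.10 in Trsp-Ins1KO islets, and 1.83 and 1.80 in TrspFF. The fall was 0.53 in Trsp-RIPKO (SE 0.07, adjusted p = 0.00971) and 0.68 in Trsp-Ins1KO (SE 0.07, adjusted p = 0.0032). Yars2, for tyrosine, likewise fell by 0.41 in Trsp-RIPKO (adjusted p = 0.0416) and by 0.59 in Trsp-Ins1KO (adjusted p = 0.012). Its values were -1.11 and -1.06 in Trsp-RIPKO islets, -1.38 and -1.14 in Trsp-Ins1KO islets, and -0.59 and -0.76 in TrspFF. With normexp neither Yars2 fall was called (-0.17 in Trsp-RIPKO and -0.18 in Trsp-Ins1KO). The Yars2 call in Trsp-RIPKO was also lost with dim probes kept and without any 1 of the Trsp-RIPKO and TrspFF arrays, and that in Trsp-Ins1KO without TrspFF array 1.

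Wars2, for tryptophan, fell by 0.48 in Trsp-RIPKO (adjusted p = 0.014) and by 0.29 in Trsp-Ins1KO (adjusted p = 0.036). Its values were -0.62 and -0.46 in Trsp-RIPKO islets, -0.35 and -0.35 in Trsp-Ins1KO islets, and -0.03 and -0.08 in TrspFF. The TrspFF arrays were the highest for Rars2, Yars2 and Wars2, but a dimmer Wars2 probe gave -0.06 in Trsp-RIPKO and 0.42 in Trsp-Ins1KO, neither called. With normexp Wars2 was at -0.17 in Trsp-Ins1KO, not called.

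In Trsp-RIPKO 4 of 14 mitochondrial members were called lower and 0 higher in limma (28.6% lower, beside 17.5% of all genes), and the median was -0.13. Beside the 3 genes just named, Aars2, for alanine, fell by 0.31 (adjusted p = 0.0465) and was at -0.06 in Trsp-Ins1KO. No call was made in either line for Cars2 (-0.07 in Trsp-RIPKO and 0.11 in Trsp-Ins1KO), Fars2 (-0.12 and 0.09), Hars2 (0.04 and -0.09), Ears2 (-0.02 and 0.29) and Pars2 (-0.21 and -0.39), in the same order of groups. Cars2 loads cysteine, Fars2 phenylalanine, Hars2 histidine, Ears2 glutamate and Pars2 proline.

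The mitochondrial counts also rested on single arrays, as did the counts over all genes, which went down in the same fits. In Trsp-RIPKO the 4 called lower went down to 0 without either TrspFF array and to 1 without either Trsp-RIPKO array, and with median scaling 7 were lower. In Trsp-Ins1KO the 5 called higher went down to 1 without TrspFF array 1 and to 3 without TrspFF array 2 or Trsp-Ins1KO array 2, and the 3 called lower to 1 without TrspFF array 1 and to 2 without TrspFF array 2 or Trsp-Ins1KO array 2. With median scaling 3 were higher there and 3 lower, and with normexp 5 and 1.

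Between the lines, 3 of 14 mitochondrial members were higher in Trsp-Ins1KO than in Trsp-RIPKO and 0 lower: Sars2 by 0.88 (SE 0.08, adjusted p = 0.00252), Vars2 by 0.67 (SE 0.08, adjusted p = 0.00502) and Ears2 by 0.31 (adjusted p = 0.0476). That share, 21.4%, is near the 19.3% of all genes called higher, whereas for cytosolic members it was 10 of 20. Rars2, Yars2 and Wars2 differed between the lines by -0.15, -0.18 and 0.19, none of them called. The medians were 0.27 for cytosolic and 0.20 for mitochondrial members. With median scaling 9 of 14 were higher, and with normexp 6 were higher and 1 lower.

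**Figure D3:**
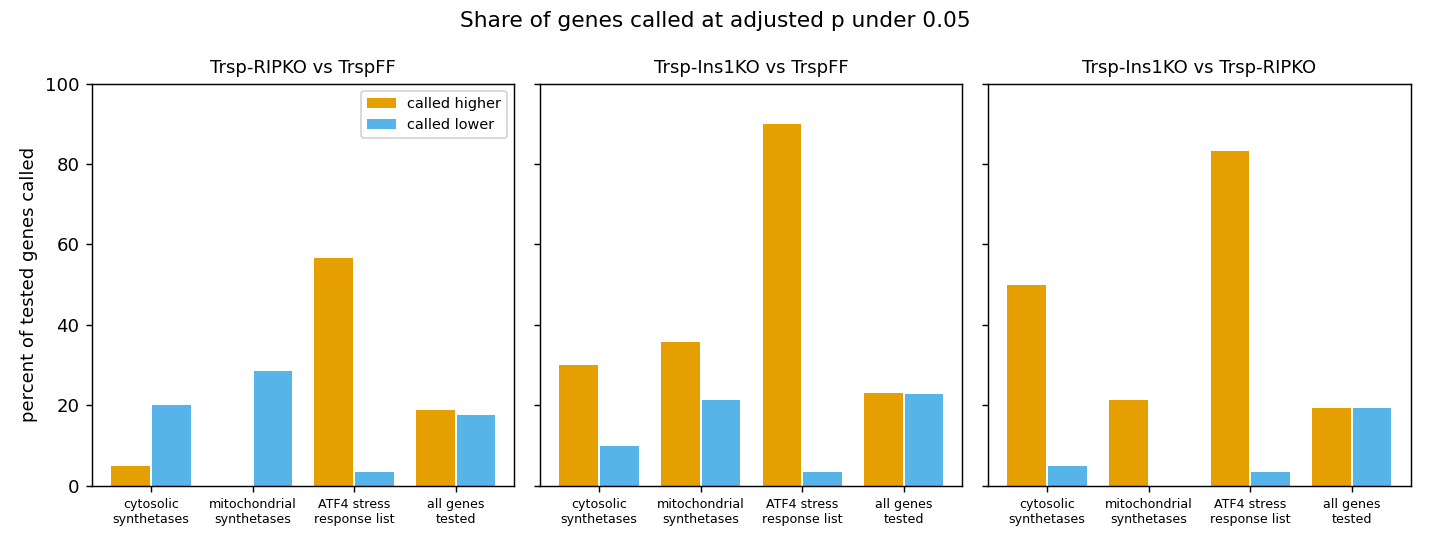
Percent of tested genes (y axis) called higher and lower in each comparison for the 20 cytosolic synthetases, the 14 mitochondrial synthetases, 30 genes of the ATF4 stress response and all 19021 genes. The cytosolic members called higher are 1 of 20 in Trsp-RIPKO against TrspFF, 6 of 20 in Trsp-Ins1KO against TrspFF and 10 of 20 between the lines.

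The enzymes of both compartments were then paired by amino acid. Over 15 pairings of a cytosolic with a mitochondrial gene (Eprs stands in 2 and Fars2 in 2), the differences had the same sign in 6 in Trsp-RIPKO and in 6 in Trsp-Ins1KO. Both genes were called in 0 pairings in Trsp-RIPKO and in 3 in Trsp-Ins1KO. In Trsp-Ins1KO the serine pair (Sars 0.57, Sars2 0.72) and the valine pair (Vars 0.41, Vars2 0.53) rose together. In the tryptophan pair the brighter probes gave a rise of Wars (0.33) and a fall of Wars2 (-0.29). The dimmer probes of this pair went the other way (Wars -0.23, Wars2 0.42), neither called. With the mean over probes Wars was at 0.05 and Wars2 at 0.07, neither called.

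The widest gap with the cytosolic gene above was alanine in Trsp-Ins1KO, where Aars was above Aars2 by 0.82, followed by tyrosine (Yars above Yars2 by 0.81). For alanine the cytosolic-to-mitochondrial log2 ratio, set to the TrspFF mean, was 0.83 and 0.81 in Trsp-Ins1KO islets and 0.27 and 0.34 in Trsp-RIPKO islets, against 0.0049 and -0.0049 in TrspFF islets. For isoleucine the mitochondrial gene lay above, by 0.87 in Trsp-RIPKO and 0.87 in Trsp-Ins1KO. The ratios were -0.74 and -0.99 in Trsp-RIPKO islets and -0.61 and -1.14 in Trsp-Ins1KO islets, against 0.16 and -0.16 in TrspFF islets. These isoleucine values rest on the brighter Iars2 probe, and the other gave differences of only 0.01 in Trsp-RIPKO and 0.16 in Trsp-Ins1KO. The arginine ratio (Rars over Rars2) was above TrspFF on all 4 knockout arrays, at 0.46 and 0.85 in Trsp-RIPKO islets and 0.59 and 0.79 in Trsp-Ins1KO islets, against -0.09 and 0.09 in TrspFF. Over the pairings, the median of the cytosolic minus the mitochondrial difference was 0.19 in Trsp-RIPKO and -0.12 in Trsp-Ins1KO. Its sign thus changed between the lines. Over all tested members, paired or not, the median in Trsp-RIPKO was -0.07 for cytosolic and -0.13 for mitochondrial members. In Trsp-Ins1KO these medians were 0.17 and 0.10, so the cytosolic one was the higher in both lines.

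**Figure D4:**
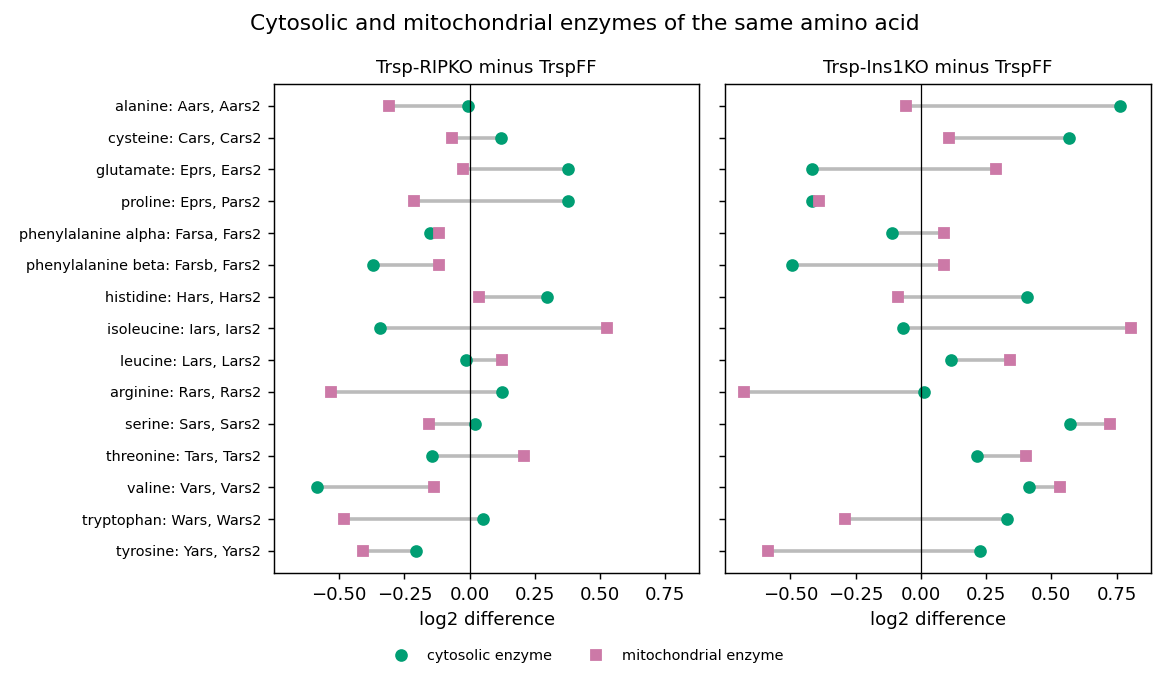
Log2 difference from TrspFF (x axis) of the cytosolic gene (circle) and the mitochondrial gene (square) of each amino acid (y axis), joined by a grey line, in Trsp-RIPKO on the left and Trsp-Ins1KO on the right. The joined points lie on the same side of 0 in 6 of 15 pairings in each panel.

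Of the 13 cytosolic members known as ATF4-induced, 5 were called higher in Trsp-Ins1KO (Aars, Cars, Sars, Vars and Wars) and 1 lower (Eprs), with a median of 0.21, beside 23% of all genes higher and 22.9% lower. In Trsp-RIPKO 1 of the 13 was higher (Eprs) and 3 were lower (Gars, Iars and Vars), with a median of -0.01, beside 18.9% and 17.5% of all genes. Between the lines 8 of 13 were higher in Trsp-Ins1KO and 1 lower, beside 19.3% and 19.4% of all genes. Of 8 members of the multisynthetase complex, some of which are also among the 13, 0 were called higher in limma and 1 lower in Trsp-Ins1KO (Eprs), and 1 was higher and 2 lower in Trsp-RIPKO. No difference between these groups of members was tested. By fold of the catalytic domain, 3 of 9 class I members were higher and 0 lower in Trsp-Ins1KO, and 3 of 10 class II members were higher and 1 lower.

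The wider ATF4 response comprises genes of amino acid synthesis, transport and stress signalling. Of 30 tested, 27 were higher and 1 lower in Trsp-Ins1KO, with a median of 0.85, beside 23% and 22.9% of all genes. In Trsp-RIPKO 17 were higher, 1 was lower and 12 were not called, with a median of 0.37, beside 18.9% and 17.5% of all genes. Slc7a3, a transporter of cationic amino acids, rose by 3.52 in Trsp-Ins1KO and 1.41 in Trsp-RIPKO, and Trib3, a pseudokinase that restrains ATF4, by 2.20 in Trsp-Ins1KO and 0.84 in Trsp-RIPKO. Gdf15, a secreted stress hormone, rose by 2.08 in Trsp-Ins1KO, and Gpt2, the mitochondrial alanine aminotransferase, by 0.91 in Trsp-RIPKO. Atf4 itself had values of 6.65 and 6.70 in Trsp-RIPKO islets, 7.30 and 7.31 in Trsp-Ins1KO islets, and 6.65 and 6.74 in TrspFF, a rise of 0.61 in Trsp-Ins1KO (SE 0.07, adjusted p = 0.00355) and no call in Trsp-RIPKO (-0.02).

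The promoters shown above were set beside the calls. Of the 5 cytosolic genes with the ATF4 element (Aars, Gars, Iars, Tars and Yars), 1 was higher and 0 lower in Trsp-Ins1KO than in TrspFF, with a median of 0.21 and a range from -0.07 to 0.76. Of the 8 without it, 1 was higher (Sars) and 2 were lower (Eprs and Farsb), with a median of -0.06. Over all genes 23% were higher and 22.9% lower. Cars, Hars, Vars and Wars, also called higher in Trsp-Ins1KO, had no promoter window at hand, so they stand in neither group. In Trsp-RIPKO the genes with the element gave 0 higher and 2 lower, and those without gave 1 and 1, beside 18.9% and 17.5% of all genes. Between the lines 4 of 5 with the element and 3 of 8 without were higher in Trsp-Ins1KO, beside 19.3% of all genes, and the difference between these counts was not tested. Of the 4, Aars was called in all 6 fits without a single array, Yars in 4, Tars in 3 and Gars in 0.

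Other genes of tRNA charging were called in both directions, as were all genes. Among the 3 scaffolds of the complex, Aimp2 fell by 0.35 in Trsp-RIPKO and 0.43 in Trsp-Ins1KO, Eef1e1 fell by 0.77 in Trsp-Ins1KO and was at -0.17 in Trsp-RIPKO, and Aimp1 was called in neither (0.08 in Trsp-RIPKO and 0.02 in Trsp-Ins1KO). Of 12 further genes of charging, editing and tRNA end processing, 1 was higher and 5 lower in Trsp-RIPKO, beside 18.9% and 17.5% of all genes. In Trsp-Ins1KO 4 of them were higher and 4 lower, beside 23% and 22.9% of all genes. Dtd2, which removes wrongly attached amino acids from transfer RNA, rose by 1.25 in Trsp-Ins1KO and was at 0.10 in Trsp-RIPKO. Trnt1, which adds the CCA end to which amino acids are attached, fell by 0.58 in Trsp-RIPKO and 0.81 in Trsp-Ins1KO. Qrsl1, a subunit of the amidotransferase that completes mitochondrial glutaminyl-tRNA, fell by 0.63 in Trsp-RIPKO and by 0.31 in Trsp-Ins1KO, and Prorsd1 rose by 0.69 in Trsp-RIPKO and 0.61 in Trsp-Ins1KO.

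Factors of the translation steps after charging were counted as well. Of 9 mitochondrial factors, 4 were lower (beside 17.5% of all genes) and 0 higher (beside 18.9%) in Trsp-RIPKO in limma. These falls were led by Tufm, the mitochondrial elongation factor Tu (-0.60), Mtrf1, a release factor (-0.39), and Tsfm, the exchange factor of Tufm (-0.37). In Trsp-Ins1KO 3 were lower (beside 22.9% of all genes) and 1 higher (beside 23%), with Mtrf1l at -0.50, Mtrf1 at -0.42 and Mtif2, an initiation factor, at 0.36. Of 7 cytosolic elongation genes, 2 were lower in Trsp-RIPKO (Eef2 at -0.33 and Eef1b2 at -0.27), beside 17.5% of all genes. In Trsp-Ins1KO 1 of the 7 was higher (Eef1d at 0.27), beside 23% of all genes.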

How the data were processed

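Total RNA of 6 islet samples was hybridised to 1-colour Agilent arrays. Per the file headers, the authors read them with Feature Extraction 10.7.3.1 on design 026655; the deposited intensity of each spot is background-subtracted and detrended, but not scaled between arrays. A second deposited file holds log2 values of 39485 probes, each centred on its median. How it was scaled is not stated in the sources used here, and differences between its columns equalled 75th-percentile scaling.

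Here, log2 of the deposited processed intensity minus the array's 75th percentile was used, without control and outlier spots, with spots of a probe averaged. Probes had to be well above background on every array of some group, and the brightest entering probe stood for its gene (19021 genes). Names came from RefSeq accessions. Tests used limma 3.58.1 under R 4.3.3 (lmFit on group means, then eBayes) over 6 arrays (5.1 total degrees of freedom), two-sided, with Benjamini-Hochberg adjustment over all genes; 2 arrays a group limit the precision. Intervals are 95%. The fit was tested on simulated data. The members and gene lists were chosen with earlier results of these data known, and nothing is tested over the lists.

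All 36 members were to be named; array values are given for the 6 cytosolic and 3 mitochondrial members with the largest called differences, and of other lists the called genes with the 3 largest. Alternatives were quantile and median scaling, normexp (offset 50, on median spot intensity, since the files hold no mean signal), other probe filters, the mean over probes, other fits, a replicate block, leaving out each array, and the authors' table. Same-numbered arrays of different groups deviated together with r of 0.093, 0.079 and 0.065, so the numbers were not taken to pair them.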

Additional observations from a re-analysis of the deposited data

Results flagged for a closer look

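The effects of the 2 Cre lines on 14 of the 34 members differed by the test of the difference itself (Trsp-Ins1KO against Trsp-RIPKO in limma, adjusted p under 0.05). Among cytosolic members the difference was 1.00 for Vars, 0.77 for Aars, 0.55 for Sars, 0.45 for Cars, 0.43 for Yars, 0.36 for Tars, 0.32 for Kars, 0.29 for Qars, 0.28 for Wars, 0.26 for Gars and -0.79 for Eprs. Among mitochondrial members it was 0.88 for Sars2, 0.67 for Vars2 and 0.31 for Ears2. Trsp-RIPKO was on a slide of its own, so slide and line cannot be told apart in these 14. No outliers were sought, since each group held 2 arrays.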

How the results depend on the processing

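Of the calls of members, those that held in each fit without a single array were 0 of 9 in Trsp-RIPKO against TrspFF, 5 of 16 in Trsp-Ins1KO against TrspFF (Aars, Cars, Sars, Rars2 and Sars2) and 6 of 14 between the lines. These fits have fewer arrays, and a lone array of a group is assumed to vary like the others. Signal over background limited 2 members, Mars2 and Nars2. The cause of the changes below was not tested unless a construction is named.

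Quantile normalization gave 2 cytosolic lower and a median of -0.027 for cytosolic members in Trsp-RIPKO against TrspFF. It gave a median of 0.15 for cytosolic members in Trsp-Ins1KO against TrspFF. It gave a median of 0.21 for cytosolic members in Trsp-Ins1KO against Trsp-RIPKO. The sign turned, to Aars 0.072, Lars 0.065 and Rars -0.0061 in Trsp-RIPKO against TrspFF and to Gars 0.060 and Rars -0.030 in Trsp-Ins1KO against TrspFF. Median scaling gave 0 cytosolic higher, 10 cytosolic lower, a median of -0.31 for cytosolic members, 7 mitochondrial lower, a median of -0.36 for mitochondrial members, 2013 of all genes higher and 7264 of all genes lower in Trsp-RIPKO against TrspFF. It gave 3 cytosolic higher, a median of 0.097 for cytosolic members, 3 mitochondrial higher and a median of 0.029 for mitochondrial members in Trsp-Ins1KO against TrspFF. It gave a median of 0.44 for cytosolic members, 9 mitochondrial higher, a median of 0.37 for mitochondrial members, 5702 of all genes higher and 2351 of all genes lower in Trsp-Ins1KO against Trsp-RIPKO. The sign turned, to Cars -0.12, Rars -0.12, Sars -0.22, Wars -0.19, Hars2 -0.20, Lars2 -0.11 and Tars2 -0.028 in Trsp-RIPKO against TrspFF and to Rars -0.059 in Trsp-Ins1KO against TrspFF. Normexp omits the correction for array position and adds an offset of 50 to each signal. The part of each in the changes was not tested. Normexp gave 6 cytosolic higher, 8 cytosolic lower, 2 mitochondrial higher and a median of -0.058 for mitochondrial members in Trsp-RIPKO against TrspFF. It gave 6 cytosolic lower, a median of -0.0031 for cytosolic members, 1 mitochondrial lower, a median of 0.057 for mitochondrial members and 9193 of all genes higher in Trsp-Ins1KO against TrspFF. It gave 4 cytosolic lower, a median of 0.12 for cytosolic members, 6 mitochondrial higher, 1 mitochondrial lower, a median of 0.11 for mitochondrial members and 8330 of all genes higher in Trsp-Ins1KO against Trsp-RIPKO. The sign turned, to Aars 0.32, Cars -0.026, Lars 0.10, Sars -0.069, Wars -0.15, Yars 0.024, Cars2 0.029, Lars2 -0.053 and Pars2 0.088 in Trsp-RIPKO against TrspFF and to Kars -0.053, Lars -0.093, Tars -0.036, Aars2 0.063 and Fars2 -0.068 in Trsp-Ins1KO against TrspFF and to Kars -0.012 in Trsp-Ins1KO against Trsp-RIPKO. Keeping dim probes, which adds genes to the test, gave 0 cytosolic higher, 0 cytosolic lower, 1 mitochondrial lower, 1852 of all genes higher and 839 of all genes lower in Trsp-RIPKO against TrspFF. It gave 10243 of all genes higher in Trsp-Ins1KO against TrspFF. It gave 6 cytosolic higher and 8344 of all genes higher in Trsp-Ins1KO against Trsp-RIPKO. Averaging the probes of a gene gave a median of 0.13 for cytosolic members in Trsp-Ins1KO against TrspFF. It gave a median of 0.19 for cytosolic members in Trsp-Ins1KO against Trsp-RIPKO. The sign turned, to Wars -0.021 and Vars2 0.15 in Trsp-RIPKO against TrspFF and to Wars2 0.066 in Trsp-Ins1KO against TrspFF. Fitting only the 2 groups compared gave 2 cytosolic higher and 1 mitochondrial higher in Trsp-RIPKO against TrspFF. It gave 6 cytosolic higher in Trsp-Ins1KO against Trsp-RIPKO. Keeping only probes above background on all arrays gave 1 mitochondrial higher in Trsp-RIPKO against TrspFF. Trended robust eBayes gave 4 cytosolic higher and 2 mitochondrial higher in Trsp-RIPKO against TrspFF.

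The authors' table by its own names gave 10 cytosolic lower, a median of -0.27 for cytosolic members and a median of -0.20 for mitochondrial members in Trsp-RIPKO against TrspFF. It gave 2 cytosolic higher, 6 cytosolic lower, a median of -0.17 for cytosolic members, 3 mitochondrial higher, 5 mitochondrial lower and a median of -0.099 for mitochondrial members in Trsp-Ins1KO against TrspFF. It gave 4 cytosolic higher, a median of 0.071 for cytosolic members and a median of 0.13 for mitochondrial members in Trsp-Ins1KO against Trsp-RIPKO. By construction it turned the sign of all 34 members in Trsp-Ins1KO against TrspFF, to Aars -0.76, Cars -0.57, Dars -0.26, Eprs 0.42, Farsa 0.11, Farsb 0.50, Gars 0.016, Hars -0.41, Iars 0.067, Kars -0.19, Lars -0.11, Mars 0.18, Nars -0.15, Qars 0.0084, Rars -0.011, Sars -0.57, Tars -0.21, Vars -0.41, Wars -0.33, Yars -0.23, Aars2 0.058, Cars2 -0.11, Ears2 -0.29, Fars2 -0.088, Hars2 0.087, Iars2 -0.81, Lars2 -0.34, Pars2 0.39, Rars2 0.68, Sars2 -0.72, Tars2 -0.40, Vars2 -0.53, Wars2 0.29 and Yars2 0.59. The sign also turned, to Cars -0.45, Farsb 0.12, Hars -0.11, Sars -0.55, Wars -0.28, Iars2 -0.28, Lars2 -0.22, Pars2 0.18, Rars2 0.15, Tars2 -0.19 and Yars2 0.18 in Trsp-RIPKO against TrspFF and Cars -0.12, Sars -0.022 and Wars -0.050 in Trsp-Ins1KO against Trsp-RIPKO. With each column assigned to the scanner file it matches, every count and call of members was as reported.

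In Trsp-RIPKO against TrspFF, the fits without a single array gave 0 to 2 cytosolic higher, 0 to 5 cytosolic lower, 0 to 1 mitochondrial higher, 0 to 4 mitochondrial lower, 653 to 4048 of all genes higher and 181 to 3571 of all genes lower, with the mitochondrial median -0.17 to -0.11, Aars -0.025 to 0.0099, Lars -0.042 to 0.018, Rars -0.026 to 0.27, Sars -0.0083 to 0.053, Wars -0.028 to 0.13, Cars2 -0.24 to 0.11 and Ears2 -0.12 to 0.073. In Trsp-Ins1KO against TrspFF, the fits without a single array gave 3 to 6 cytosolic higher, 0 to 2 cytosolic lower, 1 to 5 mitochondrial higher, 1 to 3 mitochondrial lower, 1834 to 4047 of all genes higher and 1749 to 4197 of all genes lower, with the cytosolic median 0.12 to 0.18, Gars -0.056 to 0.025, Iars -0.15 to 0.012, Qars -0.079 to 0.063, Rars -0.066 to 0.089 and Aars2 -0.15 to 0.033. In Trsp-Ins1KO against Trsp-RIPKO, the fits without a single array gave 4 to 7 cytosolic higher, 0 to 1 mitochondrial lower, 1788 to 3146 of all genes higher and 2088 to 3417 of all genes lower, with the cytosolic median 0.21 to 0.30.

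With the replicate number as a block, mitochondrial members called higher in Trsp-RIPKO against TrspFF became 1, and the other counts of members stayed within 1.5 times. The numbers do not pair the arrays, so the block is a check only.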
